A study of Homo sapiens with 5 samples.

Results

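The genes described here make nucleotides and feed them with one-carbon units: 33 protein-coding genes of purine, pyrimidine, deoxynucleotide, serine and folate one-carbon synthesis, out of 20033 protein-coding genes examined. They are listed by name as enzymes of these routes, with no threshold on a measured value, although earlier results of these data were known when the list was made. All 33 were found in the GENCODE 44 annotation of GRCh38, with 2 to 29 annotated transcript starts each. A gene is called bound in a list when any base of a peak lies within 1 kb of any of its starts, and bound in both replicates when this holds in both lists of a factor.

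The data are CUT&RUN peak lists from OVCAR8 cells, an established human ovarian carcinoma line. CUT&RUN uses an antibody to tether a nuclease to a chromatin protein, so that only the DNA around that protein is cut free and sequenced. There were 2 MYC libraries, 2 HSF1 libraries and 1 IgG control, each from 500000 cells fixed for 1 minute in 1% formaldehyde, with no treatment, knockdown or second cell line among them. All values therefore describe 1 cell line in 1 state, and the peak lists hold no expression values against which the identity of the line could be checked.

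With duplicates removed, the MYC and HSF1 libraries kept between 8265647 and 10084407 fragments, and the IgG control kept 9306942. The authors called MYC peaks at a p-value of 1e-10 and HSF1 peaks at 1e-04, both against the same IgG library. Replicates 1 and 2 gave 25646 and 13290 MYC peaks, and 6477 and 4492 HSF1 peaks. Nothing in the labels says whether the replicates were separate cultures, so the spread between them may be technical.

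Purines are built step by step on a ribose phosphate that PRPP synthetases supply, and the finished ring is then turned into AMP or GMP by separate branches. Pyrimidines are made as a free ring first and then joined to PRPP, and ribonucleotide reductase and thymidylate synthase convert ribonucleotides into the building blocks of DNA. Serine and folate metabolism deliver the one-carbon units that purine and thymidylate synthesis consume. MYC is a basic helix-loop-helix transcription factor that pairs with MAX and prefers the E-box CACGTG, and nucleotide synthesis genes are among its textbook targets. HSF1 is the heat shock factor, known for driving chaperone genes through arrays of the unit GAA and its reverse TTC, and it is also studied for its activity in tumor cells outside heat stress.

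MYC peaks stood at most of these promoters and HSF1 peaks at few. The promoters of 28 of the 33 genes had a MYC peak in both replicates, which is 84.8%, beside 40.1% of all protein-coding genes. HSF1 peaks in both replicates were called at 2 of the 33, PSPH and RRM2B, which is 6.06% beside 3.49% of all protein-coding genes. Shares of all genes are given throughout as a description of the background, with no test of the difference. At the same 2 promoters, MYC and HSF1 peaks overlapped by at least 1 bp in both replicates, beside 2.59% of all protein-coding genes.

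The E-boxes nearest the MYC summits are shown first, because CACGTG is the sequence MYC is known to prefer, although most of the bound genes had none within 100 bp of a summit in both lists. In replicate 1, 24.1% of the bound genes had CACGTG within 100 bp of a MYC summit, beside 9.05% of all bound protein-coding genes. In replicate 2 the shares were 31% and 7.76%. A MYC summit with CACGTG within 100 bp was found at 12 of the genes in at least 1 list, a count for which no share of all genes is given. PPAT and PAICS, which are read away from each other, share 1 of these sites, so that 11 sites are printed. Each line gives 30 bases on the gene's own strand, 5′ to 3′, with the E-box in capitals.
PPAT: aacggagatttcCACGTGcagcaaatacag
PFAS: gagtgcatcttcCACGTGagtatagttacc
ADSL: ggcccgccccagCACGTGccgggctctgtt
ATIC: ctcctacctgcgCACGTGgtgccgccgctg
ADSS2: tctaacgggagaCACGTGgttttcagtgta
PRPS1: gggcggtagggaCACGTGgcttggctttgc
CAD: gcgcgccgtcctCACGTGgttccagtggag
DHODH: gccgctactgcgCACGTGcacccaaccaga
NME1: agtgctgcgaacCACGTGggtcccgggcgc
SHMT1: ggagcggctggtCACGTGgctggcccgcgg
MTHFD1: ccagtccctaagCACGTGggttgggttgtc

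In GRCh38, the shared PPAT and PAICS site lies at chr4:56435780-56435809, with its E-box 180 bp upstream of the canonical PPAT start. On the PAICS strand the same stretch reads ctgtatttgctgCACGTGgaaatctccgtt and falls inside the annotated PAICS gene, 466 bp before its canonical start. In exon 1 are the sites of PFAS (chr17:8249325-8249354), ATIC (chr2:215312076-215312105), CAD (chr2:27217468-27217497), NME1 (chr17:51153581-51153610) and SHMT1 (chr17:18363447-18363476). In intron 1 are those of ADSL (chr22:40346752-40346781), ADSS2 (chr1:244450769-244450798) and PRPS1 (chrX:107629064-107629093). The DHODH site, chr16:72008573-72008602, is 157 bp upstream of the canonical start, and the MTHFD1 site, chr14:64388326-64388355, is 13 bp before it. The sites of PPAT, PAICS, ATIC and SHMT1 were within 100 bp of a summit in both lists, at 54 to 78 bp in replicate 1 and 82 to 88 bp in replicate 2. The sites of ADSS2, NME1 and MTHFD1 met that limit in replicate 1 alone, and those of PFAS, ADSL, PRPS1, CAD and DHODH in replicate 2 alone. The ADSS2 site lay near the summit of a weaker peak in intron 1, and the strongest ADSS2 peak of that list held no E-box.

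Purine ring synthesis was bound throughout. Fold enrichment, used from here on, is the authors' ratio of the peak's height to the IgG background at its summit, and for each gene the strongest promoter peak of a list is given. All 6 genes of the ring had a MYC peak in both replicates, with fold enrichments of 16.2 to 25.6 in replicate 1 and 14.3 to 27.2 in replicate 2. All 6 lay above the median of bound protein-coding genes in both lists, which was 14.6 in replicate 1 and 11.7 in replicate 2.

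PPAT, the amidotransferase that commits PRPP to purine synthesis, and PAICS, which catalyses a pair of later steps, are transcribed away from each other from starts as close as 126 bp. A single MYC peak of 3060 bp in replicate 1 and 2906 bp in replicate 2 covered both, with fold enrichments of 21.3 and 19.8. It was the widest at any of the genes, and it counts once as a peak although it marks both genes as bound.

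GART, a trifunctional enzyme of the ring, shares its promoter region with SON, a splicing factor gene on the opposite strand, and was the lowest of the group in both lists at 16.2 and 14.3. PFAS, which makes the formylglycinamidine intermediate, had fold enrichments of 25.4 and 21.3, and a weaker peak further upstream of 18.01 and 6.12. ADSL, which acts in the ring and again in the AMP branch, had 20.6 and 14.9. ATIC, which closes the ring, was the highest of the 6, with 25.6 and 27.2.

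The purine branches and PRPP supply were bound less completely. Only 3 of 7 genes had a MYC peak in both replicates, and the group median over its bound genes was 11.7 in replicate 1 and 8.73 in replicate 2, the lowest of the 6 groups in both lists. ADSS2 and ADSS1 encode the ubiquitous and the muscle form of the enzyme that opens the AMP branch. ADSS2 was bound at 28.4 and 8.84, and ADSS1 had no MYC or HSF1 peak in any list. In replicate 1 ADSS2 also had a weaker peak of 15.0, with its summit 1056 bp downstream of the start. The E-box printed for ADSS2 lies by that weaker summit.

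IMPDH2 and IMPDH1 catalyse the step that opens the GMP branch, and IMPDH2 is the form usually induced in proliferating cells. IMPDH2 was bound at 12.2 and 8.73, and IMPDH1 had a peak of 11.1 in replicate 1 and none in replicate 2. GMPS, which completes GMP, had 9.86 and 7.999, the lowest mean fold enrichment of the 28 genes bound in both lists.

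PRPS1 and PRPS2 supply PRPP. PRPS1 had a MYC peak in replicate 2 alone, at 8.73 with its summit 531 bp downstream of the nearest start, and PRPS2 had none. The weakest peaks take few distinct values: PRPS1 and IMPDH2 had the same 8.73 in replicate 2 from the same pileup of 14 fragments.

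Of the 5 pyrimidine genes, 4 were bound in both lists. CAD, whose protein carries the first 3 activities of the pathway, had fold enrichments of 23.3 and 21.97. DHODH, the mitochondrial dehydrogenase, had 18.9 and 9.12, and UMPS, which makes UMP, had 14.0 and 9.17. CTPS1, the CTP synthase needed by proliferating lymphocytes, had 24.3 and 15.6, whereas its paralog CTPS2 had no MYC peak in either list. CAD and CTPS1 were above the median of bound genes in both lists, and DHODH and UMPS were below it in replicate 2.

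Deoxynucleotide synthesis and the kinases were bound at 7 of 7 genes in both lists, with the widest range of fold enrichment of any group. NME1 and NME2 encode the major nucleoside diphosphate kinases, which make nucleoside triphosphates from diphosphates. NME1 had 44.3 and 47.6, the highest mean of the 33 genes, and stood at the 99.2 and 99.7 percentile of bound protein-coding genes. NME2, the next gene on chromosome 17, had its own peak with 27.0 in replicate 1 and 50.7 in replicate 2, so the order of the 2 genes differed between the lists. The annotation also holds a read-through gene, NME1-NME2, that starts within 7 bp of an NME1 start, so the NME1 peak belongs to both records.

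RRM2, the cell-cycle-regulated small subunit of ribonucleotide reductase, had 25.3 and 25.9, and RRM1, its large subunit, had 12.2 and 11.1. The RRM2 values are those of peaks at an upstream start, more than 1 kb from the canonical RRM2 start. Each list also had a weaker RRM2 peak nearer the canonical start, with 16.1 in replicate 1 and 13.8 in replicate 2. The p53-inducible small subunit RRM2B had 14.4 and 5.94, the lowest fold enrichment of the 29 bound genes in replicate 2. Its pileup was not low, with 84 and 50 fragments at the summit, and its IgG background was the highest of the genes in both lists. That background, recovered from the fold enrichment and the pileup, was 4.88 fragments in replicate 1 and 7.58 in replicate 2, against medians of 0.960 and 1.08 over the bound members. The part of this background in the fold enrichment and in the calls at RRM2B was not tested.

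TYMS, thymidylate synthase, had 22.2 and 11.8. DTYMK, the thymidylate kinase, had 7.005 in replicate 1 and 11.6 in replicate 2. DTYMK and NME2 were the pair with the lowest ratio of replicate 1 to replicate 2, at 0.604 and 0.533, and DTYMK had the second highest IgG background in replicate 1, at 3.997 fragments.

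All 3 genes of serine synthesis were bound in both lists and lay above the median of bound genes in both. PHGDH, the entry enzyme, had 19.7 and 17.2, but the strongest peaks of the 2 lists were at different starts. In replicate 1 it was at the upstream start that faces ZNF697, and in replicate 2 it was near the canonical start, more than 63 kb away. Each list also had the other peak, with 12.7 near the canonical start in replicate 1 and 9.52 at the upstream start in replicate 2. PSAT1, the aminotransferase, had 19.1 and 15.2. PSPH, the phosphatase that releases serine, had 31.4 and 16.2.

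All 5 genes of the folate one-carbon group were bound in both lists. MTHFD1, the trifunctional cytosolic enzyme, had 36.8 and 25.7 and the third highest mean of the 33 genes after NME1 and NME2. Its mitochondrial counterparts MTHFD2 and MTHFD1L had 26.0 and 14.5, and 22.5 and 21.5. SHMT2, the mitochondrial serine hydroxymethyltransferase, had 24.9 and 9.78, and the cytosolic SHMT1 had 15.4 and 10.5. The order of the 2 SHMT genes therefore differed between the lists, as it did for the NME pair.

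**Figure D1:**
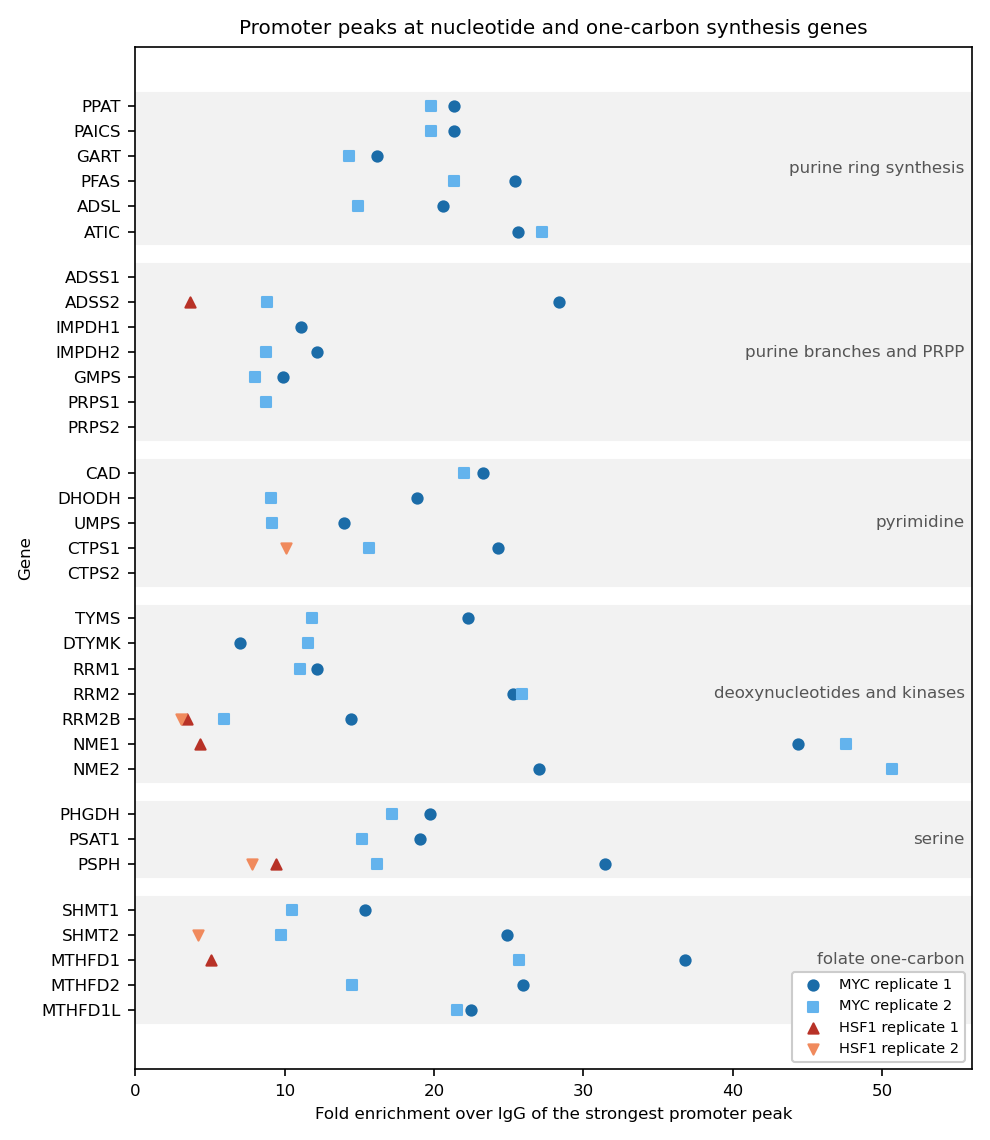
Fold enrichment over IgG (horizontal axis, ratio) of the strongest promoter peak of each gene (vertical axis, grouped by route) in the 4 lists, with no symbol where no peak was called. MYC points cover 7.005 to 44.3 in replicate 1 and 5.94 to 50.7 in replicate 2, and HSF1 points stay at or below 10.1.

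In each single list 29 of 33 genes had a MYC promoter peak, 87.9%, beside 55.3% of protein-coding genes in replicate 1 and 41.2% in replicate 2. The count of genes was thus equal in both lists although replicate 1 held more peaks. Lists of HSF1 had 5 of 33 genes in replicate 1, beside 8.58% of protein-coding genes, and 4 of 33 in replicate 2, beside 6.85%. The mean difference was 24.5 genes more for MYC than for HSF1, with an exact permutation test over the 4 lists giving a two-sided p of 0.333, which is the smallest that 2 lists against 2 allow. The calling thresholds differ between the factors, and with HSF1 peaks held to the MYC threshold of 1e-10 only PSPH had an HSF1 peak in both lists, beside 1.27% of all protein-coding genes.

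**Figure D2:**
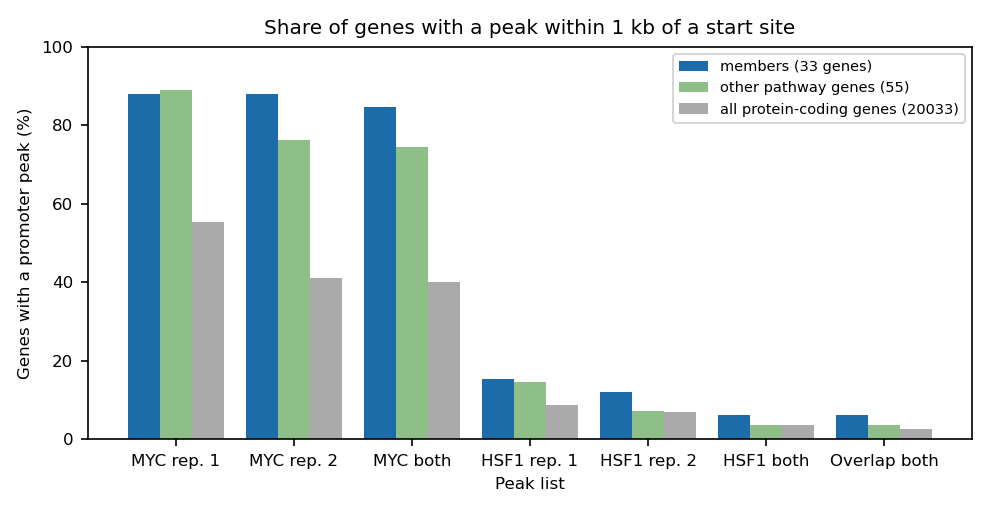
Share of genes (vertical axis, percent) with a peak within 1 kb of a start in each list, in both lists of a factor, and with overlapping MYC and HSF1 peaks in both replicates. The 33 genes reach 84.8% for MYC in both lists against 40.1% of protein-coding genes, and 6.06% for HSF1 against 3.49%.

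The 3 genes without a MYC peak were ADSS1, PRPS2 and CTPS2, and each has a paralog with a MYC peak in at least 1 list. PRPS1, PRPS2 and CTPS2 are the 3 X-linked genes of the set, and none of them was bound in both lists, against 28 of the 30 autosomal genes. X-linked protein-coding genes as a whole were bound by MYC in both lists at 12%, 103 of 859, and autosomal ones at 41.4%. The part of the X chromosome, or of its copy number in this line, in the result for these 3 genes was not tested. A missing peak means only that none was called at this depth and threshold.

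The MYC peaks at these genes were stronger and wider than at the typical bound promoter. The median fold enrichment over the 29 bound genes was 21.3 in replicate 1, beside 14.6 over all 11080 bound protein-coding genes, and 14.9 in replicate 2, beside 11.7 over 8245. In replicate 1, 22 of 29 lay above the median of all bound genes, and in replicate 2, 18 of 29. Their median percentile was 79.0 in replicate 1 and 71.4 in replicate 2. The median peak width was 988 bp and 1049 bp, beside 644 bp and 563 bp. The IgG background at their summits was not lower than elsewhere in replicate 1, with medians of 0.960 fragments for the members and for all bound genes, and was 1.08 beside 1.35 in replicate 2.

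Replicate 1 gave the higher fold enrichment at 23 of the 28 genes bound in both lists, which is 82.1%, beside 81.1% of all genes bound in both. The median ratio of replicate 1 to replicate 2 was 1.25, from 0.533 at NME2 to 3.21 at ADSS2, and 17 of the 28 were within 1.5-fold. The other 11 differed by more than 1.5-fold between replicates, so differences between genes of up to about 3.21-fold lie within the range that replicates of a single gene spanned. ADSS2, SHMT2, RRM2B and DHODH were more than 2-fold higher in replicate 1, and their place among the genes depends on which list is read. Held to a stricter p-value of 1e-20, the MYC lists kept 23 of the 28 genes in both replicates, beside 28.3% of all protein-coding genes, and lost IMPDH2, GMPS, DHODH, UMPS and SHMT1.

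**Figure D3:**
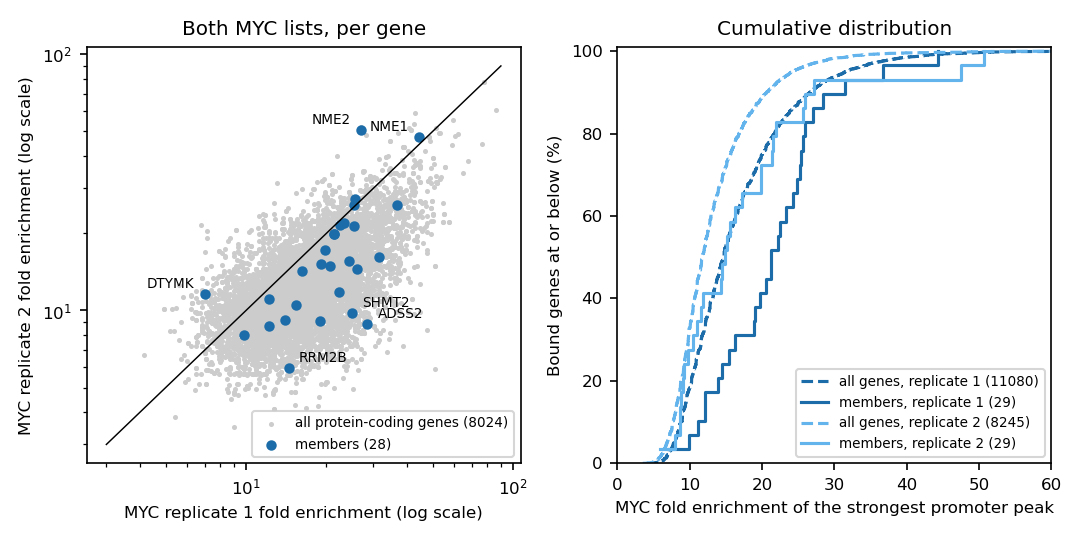
Left, MYC fold enrichment per gene in replicate 1 (horizontal, log scale) and replicate 2 (vertical, log scale), with the 28 genes bound in both lists over all 8024 such protein-coding genes and the line of equality. Right, the share of bound genes at or below each fold enrichment, with the members' curves to the right of those of all bound genes over most of the range, at medians of 21.3 against 14.6 and 14.9 against 11.7.

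The summits sat close to the start sites. The median distance from the summit of the strongest MYC peak to the nearest start was 54 bp in replicate 1 and 87 bp in replicate 2, beside 132 bp and 154 bp for all bound genes. Within 200 bp of a start were 25 of 29 summits in replicate 1 and 26 of 29 in replicate 2, which is 86.2% and 89.7%, beside 67.5% and 61.7%. Downstream of the start were 14 and 19 of the 29, which is 48.3% and 65.5%, beside 39.3% and 51% of all bound genes. The genes have several starts each, and the distance is to the nearest of them.

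**Figure D4:**
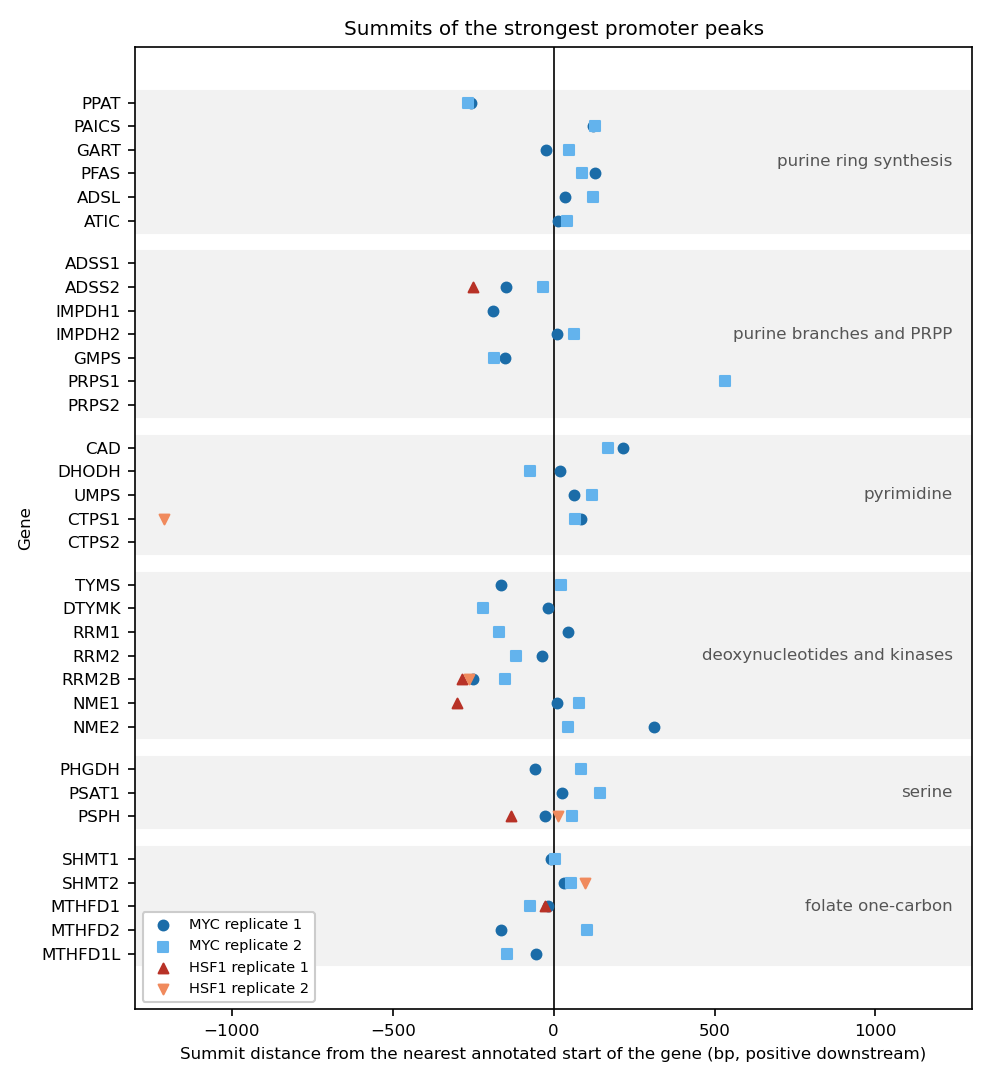
Distance in bp from the nearest annotated start (horizontal axis, positive downstream) to the summit of the strongest promoter peak of each gene (vertical axis) in the 4 lists. MYC summits lie within 200 bp of a start at 25 of 29 genes in replicate 1 and 26 of 29 in replicate 2, and the HSF1 summit of CTPS1 lies 1212 bp upstream.

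The E-box was more frequent at these promoters than at protein-coding promoters as a whole, whether or not the peaks were used to place the window. Within 250 bp of the canonical start, CACGTG, which reads the same on both strands, occurred at 10 of 33 genes, 30.3%, beside 11% of all protein-coding genes. Among genes bound in both lists it was 10 of 28, 35.7%, beside 15.7%. Within 500 bp it was 14 of 33, 42.4%, beside 18.3%. The RefSeq promoter sequences on GRCh38, which run from 250 bases before to 50 after the start, were matched for 28 of the genes, and 7 of these held CACGTG, 25%, beside 10.9% of 15345 promoters.

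By route, the fixed window of 250 bp held an E-box at PPAT, PAICS, PFAS and ATIC of the purine ring, at CAD and DHODH of the pyrimidine route, at NME1, and at SHMT1, SHMT2 and MTHFD1 of the folate group. None of the 7 genes of the purine branches and PRPP supply and none of the 3 serine genes held one there. None of the 3 genes without a MYC peak held one either, beside 7.36% of protein-coding genes without a MYC peak. The other 18 genes bound in both lists had no CACGTG in this window, which says only that these letters are not in it.

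Measured from the summits, an E-box within 100 bp was found in both lists at 4 of 28 genes, 14.3%, beside 3.89% of all genes bound in both. PPAT and PAICS are counted separately among the 4, although they share the same E-box under the same peak. In single lists it was 7 of 29 in replicate 1, 24.1% beside 9.05%, and 9 of 29 in replicate 2, 31% beside 7.76%. No CACGTG lay within 50 bp of the summit of the strongest peak at any of the genes in either list. Over all bound protein-coding genes the density of E-boxes was likewise lower at the summit than beside it, at 0.193 per kb within 25 bp and 0.807 per kb at 100 to 150 bp in replicate 1. The corresponding values in replicate 2 were 0.0978 and 0.894 per kb. Within the whole strongest peaks, CACGTG occurred 0.837 and 0.892 times per kb at the members, beside 0.443 and 0.474 at all bound genes.

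**Figure D5:**
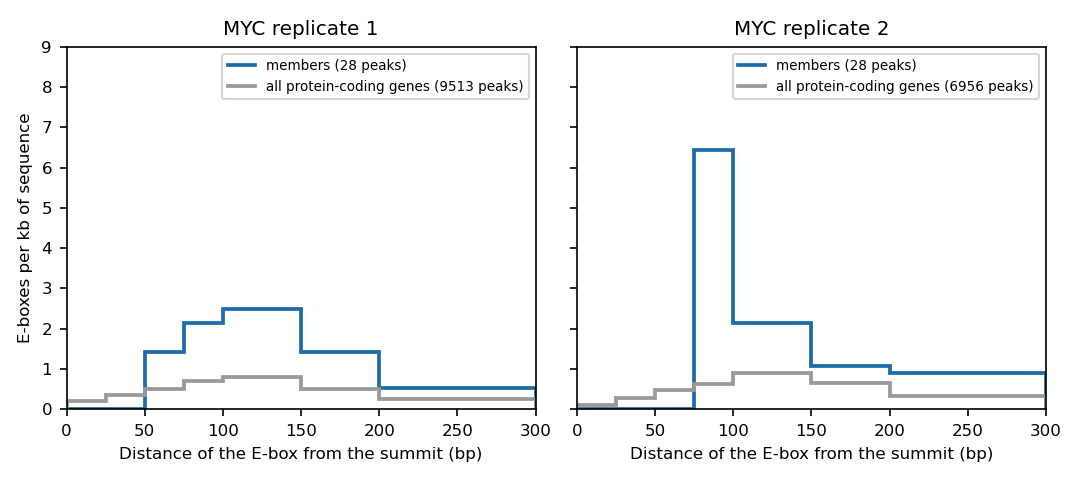
Density of CACGTG (vertical axis, per kb of sequence) by distance from the summit of the strongest MYC promoter peak (horizontal axis, bp), for 28 peaks at the members and for all peaks at protein-coding genes. At all genes the density is highest at 100 to 150 bp in both lists, and at the members no E-box falls within 50 bp.

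Most of these promoters were rich in CpG, as were most MYC-bound promoters. A window of 250 bp on each side of the canonical start was called CpG-rich at a GC content of at least 55% and an observed over expected CpG ratio of at least 0.65. This held for 30 of the 33 genes, 90.9%, beside 62.5% of all protein-coding genes, 85.8% of those with a MYC peak in both lists and 35.4% of those with none. Among CpG-rich promoters alone, MYC peaks in both lists were found at 26 of 30 of the genes, 86.7%, beside 55% of all. The part of CpG content in the MYC result was not tested further. The 3 genes that were not CpG-rich were CTPS2, which had no MYC peak, and PHGDH and SHMT2, which were bound in both lists. ADSS1 and PRPS2 were CpG-rich and had no MYC peak.

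HSF1 peaks were found at 7 of the 33 promoters in at least 1 list, 21.2%, and at 2 in both, 6.06%. Among all protein-coding genes, 8.58% had one in replicate 1, 6.85% in replicate 2 and 3.49% in both. The share of all genes with one in at least 1 list is not given here. PSPH had the strongest reproducible HSF1 peak, with fold enrichments of 9.45 in replicate 1 and 7.79 in replicate 2, at the 92.6 and 80.3 percentile of all peaks of each list. The peaks lie at chr7:56051555-56051778 and chr7:56051523-56051812 and overlap the MYC peak of the same replicate. They fall on a promoter shared with CCT6A, a subunit gene of the chaperonin TRiC that starts on the opposite strand, as close as 81 bp from a PSPH start. The HSF1 summit was 30 bp upstream of a CCT6A start in replicate 1 and 14 bp inside a PSPH start in replicate 2, so that the peak cannot be assigned to either gene.

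The 80 bases between the nearest starts of these 2 genes, chr7:56051605-56051684 on the plus strand of GRCh38, are shown because they lie under the HSF1 and MYC peaks of both replicates, with each heat shock unit GAA or TTC in capitals. These bases hold a single such unit and no E-box. The HSF1 summits lie outside them, at chr7:56051735 in replicate 1 and chr7:56051590 in replicate 2.
PSPH-CCT6A interval: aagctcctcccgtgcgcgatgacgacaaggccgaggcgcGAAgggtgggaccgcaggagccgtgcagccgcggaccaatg

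RRM2B was the other gene with an HSF1 peak in both lists, with the low fold enrichments of 3.44 and 3.09, at the 7.95 and 2.26 percentile of all HSF1 peaks. Its summits were 285 and 264 bp upstream of the start. They were 35 and 113 bp from the MYC summit of the same replicate. Here too the IgG background was high, as given with its MYC peaks above, and its part in the HSF1 calls was not tested.

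The other HSF1 peaks came from 1 list each. CTPS1 had a peak of 10.1 in replicate 2, the highest HSF1 value among the genes, but its summit lay 1212 bp upstream of the nearest start and only its edge came within 1 kb. A MYC peak of 8.75 in replicate 2 overlapped it, with its summit 62 bp away and 1150 bp from the nearest CTPS1 start. A peak of 4.39 was called further upstream in the same list, and the MYC lists had peaks of 13.6 and 8.30 over it. MTHFD1 had an HSF1 peak of 5.07, NME1 of 4.33 and ADSS2 of 3.64 in replicate 1, with pileups of 15, 8 and 8 fragments. SHMT2 had a peak of 4.19 with a pileup of 9 in replicate 2. None of these was called in the other HSF1 list. No HSF1 promoter peak was called in either list at 26 of the 33 genes, and the matching share of all genes is not given. In single lists such a peak was called at 15.2% of the 33 in replicate 1 and 12.1% in replicate 2. Among all protein-coding genes the shares were 8.58% and 6.85%, so HSF1 peaks were not rarer at these genes than elsewhere.

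MYC and HSF1 promoter peaks overlapped at 5 genes in replicate 1, beside 7.69% of protein-coding genes, and at 3 in replicate 2, beside 5.06%. In replicate 1 these were ADSS2, MTHFD1, NME1, PSPH and RRM2B, which are all the genes with an HSF1 peak in that list. In replicate 2 they were PSPH, RRM2B and SHMT2, while the MYC peak that overlapped the HSF1 peak of CTPS1 lay outside the 1 kb window and was not counted. The summits of the 2 factors were 35 to 415 bp apart at the 5 genes of replicate 1 and 43 to 359 bp at the 3 of replicate 2.

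None of the 9 HSF1 promoter peaks at these genes held a heat shock element of 3 units, written GAANNTTCNNGAA or TTCNNGAANNTTC and searched on both strands, where longer arrays can match both forms. Among all HSF1 promoter peaks of protein-coding genes, 8.21% in replicate 1 and 10.6% in replicate 2 held one.

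Many of the promoters are shared, which limits to which gene a peak belongs. Besides PPAT with PAICS, GART with SON, PSPH with CCT6A and NME1 with its read-through gene, starts within 1 kb belonged to CTC1 at PFAS, ING5 at DTYMK, ZNF697 at PHGDH and ATRAID at CAD. TYMS shared its start region with the antisense gene TYMSOS. ADSL overlapped a coding gene record without a symbol, and IMPDH2, UMPS, SHMT2, MTHFD1 and MTHFD2 had non-coding genes without a symbol within 1 kb. Counting canonical starts of coding genes on opposite strands within 1 kb, 4 of 33 genes were in such pairs, 12.1%, beside 10% of all protein-coding genes. All 4 were bound by MYC in both lists, beside 1451 of the 2007 protein-coding genes in such pairs. Of the 4, PPAT and PAICS are bound by the same peak.

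Away from the start sites, peaks were called at 2 to 7 of the genes per list, near or below the share of all protein-coding genes. From the gene body to 5 kb upstream, outside the promoter windows, MYC replicate 1 had 15 peaks at 7 of the genes, 21.2% beside 25.3% of all protein-coding genes, and replicate 2 had 3 peaks at 2, 6.06% beside 12.6%. The HSF1 lists had 3 and 2 peaks there, each at 2 genes, 6.06% beside 9.33% and 6.61% of protein-coding genes. At 3 places the peak was called in both replicates. About 5.2 kb upstream of CAD was a MYC peak of 24.6 and 21.5, at chr2:27211607-27212581 in replicate 1. It is a promoter peak of other genes, since its summits were 32 and 9 bp from a start of SLC5A6, and the canonical start of ATRAID is 5328 bp from that of CAD. Upstream of CTPS1 was the MYC peak already given.

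In intron 26 of MTHFD1L was the only HSF1 peak of the set outside promoters that both lists held. It had fold enrichments of 8.69 and 7.41 at chr6:151041119-151041602 and chr6:151041110-151041676, with summits 4377 and 4385 bp from the nearest MTHFD1L start. A MYC peak of 12.3 overlapped it in replicate 1, and none was called there in MYC replicate 2. It held no heat shock element of 3 units. The promoter of MTHFD1L itself had MYC peaks in both lists and no HSF1 peak.

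A wider list of 55 genes of salvage, folate transport, the methionine cycle and nucleotide handling was examined beside the 33. In MYC replicate 1, 49 of the 55 were bound, 89.1% beside 87.9% of the 33, and in replicate 2, 42 were bound, 76.4% beside 87.9%. In both replicates 41 had a MYC peak, 74.5% beside the 40.1% of protein-coding genes, with median fold enrichments of 16.2 and 13.2 over those bound in each list. The 3 with the highest mean were FPGS, which traps folates in the cell by adding glutamates, with 28.1 and 30.9, UCK2, the uridine-cytidine kinase of pyrimidine salvage, with 33.3 and 23.3, and SLC25A32, the mitochondrial folate carrier, with 31.1 and 21.9. No test was made of the difference between the 2 lists of genes.

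HSF1 peaks in both replicates stood at 2 of the 55, GGH and MAT2A, which is 3.64%, close to the 3.49% of all protein-coding genes. MAT2A, which makes S-adenosylmethionine, had HSF1 fold enrichments of 6.11 and 8.70 beside MYC values of 26.8 and 19.1. GGH, which removes glutamates from folates, had HSF1 values of 5.62 and 6.49 beside MYC values of 18.3 and 11.01. At both genes the MYC and HSF1 peaks overlapped in both replicates, as they did at PSPH and RRM2B. That is 3.64% of the 55, beside 2.59% of all protein-coding genes.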

How the data were processed

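The deposited files are MACS2 peak lists, 1 for each of the 2 MYC and 2 HSF1 CUT&RUN libraries of OVCAR8 cells. The authors aligned paired reads to GRCh38 with Bowtie2 and called peaks per library with MACS 2.2.9.1 against 1 IgG library, keeping duplicate fragments once and scaling the larger library to the smaller. The headers call that library IgG replicate 2, while the labels list 1 IgG control without a number. No IgG list was analysed here.

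The columns deposited by the authors are the pileup, which is the signal at the summit in fragments, a −log10 p-value from MACS2, and a fold enrichment, which is the ratio of pileup to local IgG background with 1 added to both terms. The −log10 q-value column was not used. A peak called at 1e-10 has passed a stricter limit than one at 1e-04, so MYC and HSF1 counts are not on equal terms, and a gene without a peak was not called at that depth.

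Peaks were set against the transcript starts of GENCODE 44 on chromosomes 1 to 22, X and Y, with Python 3.11.15, pandas 2.3.3, numpy 2.4.6 and pysam 0.24.0. Per gene the peak with the highest fold enrichment was kept, and percentiles are among bound protein-coding genes of the same list. Peak lists carry no reads per gene, so error was judged from the replicate lists and no model was fitted. The only test is an exact permutation over the lists (scipy 1.17.1). Gene assignment and motif search were tested on simulated data. Motifs were read from the GRCh38 sequence.

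The genes, the 55 other pathway genes and the alternatives were chosen with earlier results of these data known. Genes are named as members, by any HSF1 peak, by the lack of a MYC peak, by the 3 highest and 3 lowest mean MYC values, by a shared promoter, or, among the 55, by the 3 highest MYC means and HSF1 peaks in both lists. Some results that fall under this rule are not reported here. The 63 alternatives cover other distances and start sets, stricter thresholds, single lists, the union of lists, other definitions of overlap, other motif windows and the replicate number as a block.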

Additional observations from a re-analysis of the deposited data

How the results depend on the processing

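Of 63 alternatives, 47 left their result within its limit. The number of genes with a MYC peak, 28, ranged from 23 to 30, and the median MYC fold enrichment and the difference between MYC and HSF1 counts (24.5 to 27.5) kept their direction under every alternative run. Results that rest on few genes moved. Genes with an HSF1 peak, 2 in both lists, were 4 to 5 in single lists, 7 in the union and 1 with HSF1 at 1e-10. Genes with overlapping peaks, 2 in both replicates, were 3 to 5 in single replicates, 6 in the union, 1 with HSF1 at 1e-10 and 1 with summits within 200 bp. Genes with an E-box near the MYC summit, 4 in both lists, were 7 to 9 in single lists, 12 in the union, 0 within 50 bp, 17 in the whole peak and 8 when CACGCG was also accepted. No share of all protein-coding genes is given for the union counts. The median MYC percentile, 75.2 over the mean of the lists, was 69.7 with gene-record starts alone and 67.2 when peaks were ranked by pileup. With the replicate number as a block the difference of 24.5 genes had an exact two-sided p of 0.5, the smallest that 2 pairs allow. The replicate numbers are not stated to pair the samples: differences between replicates 1 and 2 of MYC and HSF1 correlated at r = 0.27 over 611 genes. The libraries held 8265647 to 10084407 fragments, and 3 of the HSF1 peaks at these genes rest on pileups of 8 or 9 fragments. The effect of depth on the calls was not tested.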
